A study of Oryza sativa with 2 samples.

Results

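Small heat shock proteins are chaperones that share an alpha-crystallin domain. They bind unfolding proteins without using ATP and hold them until ATP-dependent chaperones can refold them. In plants, class I and class II members lie mainly in the cytosol, other members are sent to organelles such as the chloroplast, and transcription of most of them rises sharply on heat, when heat shock factors bind heat shock elements in their promoters. In vegetative tissue that has not met heat, most of these genes are known for low expression, while some are also switched on by other stresses or during seed development.

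The set described here holds 9 rice loci, taken by a rule that uses their IDs and no measured values. Earlier results of these data were known when the loci were chosen. Listed as class I are 7 loci, of which 3 lie on chromosome 1 and 4 on chromosome 3. The others are the class II gene HSP18.0 (LOC_Os01g08860) and the chloroplast gene HSP26.7 (LOC_Os03g14180). Of the 9 loci, 8 had a row in the deposited tables, out of 37896 rows in all. LOC_Os03g16030, a class I locus of chromosome 3, had no row in either table and was not analysed here. The files hold only locus IDs, so the class of each locus is the one given in the list and was not read from the files.

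Poly(A) RNA was sequenced from wild-type seedlings of 93-11, an indica cultivar of Oryza sativa, taken as whole plants at 3 weeks of age. All plants were grown in Yoshida nutrient solution with a short daily light period. The 2 libraries form a single group, named replicate 1 (here also the first library) and replicate 2 (the second library); the labels name no heat treatment and no growth temperature. The labels do not tell separate plants from pools or from repeats of 1 sample, and the difference between the libraries may therefore be technical. The deposited FPKM values (fragments per length of transcript, scaled to the mapped fragments of the library) added up to 741624 for replicate 1 and 668305 for replicate 2, and no fragment counts come with them. Whole plants mix many cell types, so fewer cells of a type and less RNA per cell cannot be told apart, and the tissue label was not checked against marker genes because the IDs are not paired with names.

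Only 2 of the 8 measured small heat shock protein loci, both class I loci of chromosome 3, were detected in these seedlings. Detection was set at 1 FPKM or more in both libraries, and 53.1% of all rows passed it. The other 6 loci lay under 1 FPKM in both libraries, as did 41.2% of all rows. The median of the mean level was 0.475 FPKM over the 8 loci and 2.05 FPKM over all rows. Replicate 1 had 30.2 FPKM and replicate 2 had 32.04 FPKM over the 8 loci together, which is 0.00407% and 0.00479% of the summed FPKM of each library. The detected pair held 95.6% of that sum in replicate 1 and 92.2% in replicate 2.

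**Figure D1:**
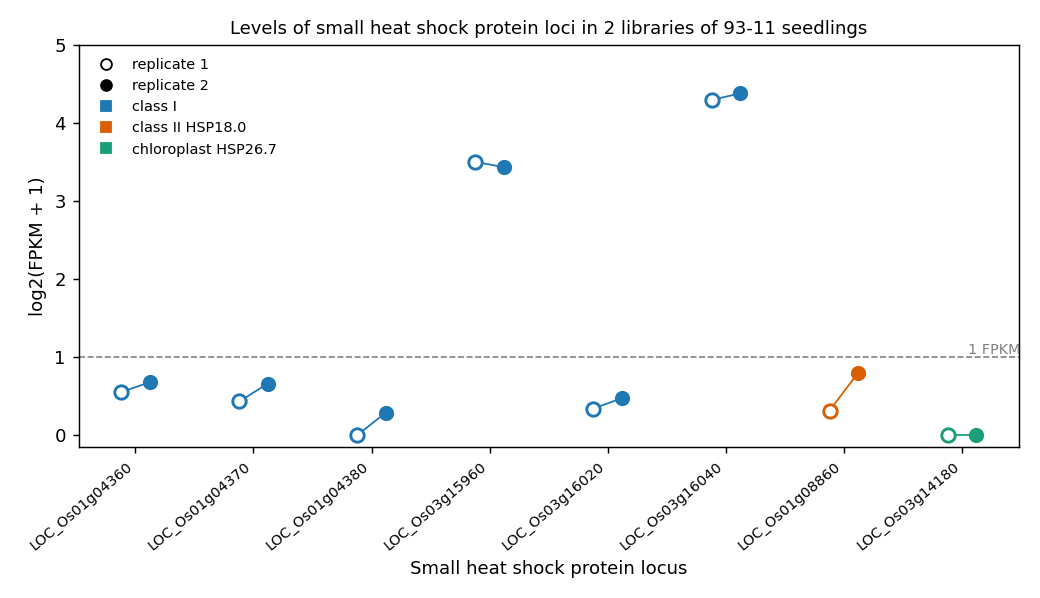
Level of each measured small heat shock protein locus as log2(FPKM + 1), with an open circle for replicate 1, a filled circle for replicate 2 and a dashed line at 1 FPKM. LOC_Os03g15960 and LOC_Os03g16040 lie near 10 and 19 FPKM in both libraries, and the other 6 loci lie under the dashed line in both.

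The class I locus LOC_Os03g16040 was the highest of the set. Replicate 1 gave 18.6 FPKM for this locus and replicate 2 gave 19.7 FPKM, with a mean of 19.2 ± 0.832 FPKM (SD, n = 2). These levels placed it above 83.2% and 84.4% of the rows of each library. The class I locus LOC_Os03g15960 followed, for which replicate 1 gave 10.3 FPKM and replicate 2 gave 9.78 FPKM, with a mean of 10.04 ± 0.369 FPKM (SD, n = 2). It lay above 73.3% and 72.4% of the rows. The values of these loci did not overlap: LOC_Os03g16040 was 1.80 times as high as LOC_Os03g15960 in replicate 1 and 2.02 times as high in replicate 2. Neither came near the most abundant transcripts. A mean of 100 FPKM or more was found in 998 rows and in none of the 8 measured loci of the set.

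The third measured class I locus of chromosome 3, LOC_Os03g16020, was low. Replicate 1 gave 0.265 FPKM and replicate 2 gave 0.387 FPKM, with a mean of 0.326 ± 0.0860 FPKM (SD, n = 2). Both values lay below the lowest value of LOC_Os03g15960, which was 9.78 FPKM.

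None of the 3 class I loci of chromosome 1 reached 1 FPKM. For LOC_Os01g04360, replicate 1 gave 0.464 FPKM and replicate 2 gave 0.598 FPKM. LOC_Os01g04370 was close to it, at 0.347 FPKM in the first library and 0.578 FPKM in the second. LOC_Os01g04380 was listed at 0 in replicate 1 and had 0.219 FPKM in replicate 2. An exact 0 is given only as listed, since an estimation step can leave one. In replicate 1 the chromosome 1 loci together had 0.811 FPKM, whereas the 3 measured class I loci of chromosome 3 had 29.1 FPKM. In replicate 2 these sums were 1.40 and 29.9 FPKM. The mean of log2(FPKM + 1) was higher for the chromosome 3 loci by 2.38 in replicate 1 and 2.22 in replicate 2. That difference describes the listed loci and rests on 2 of the 3 chromosome 3 loci, since LOC_Os03g16020 lay in the range of the chromosome 1 loci.

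The class II and chloroplast genes were also below detection. HSP18.0 stood at 0.243 FPKM in the first library and 0.732 FPKM in the second, with a mean of 0.488 ± 0.346 FPKM (SD, n = 2). Of the measured loci above 0 in both libraries, it had the widest relative spread between the libraries. HSP26.7, whose protein acts in the chloroplast, was listed at 0 in both libraries, as were 26.2% of all rows. The rows next to HSP26.7 by locus number were at 26.4 and 39.9 FPKM in replicates 1 and 2 on the lower-numbered side, and listed at 0 in both libraries on the other. The rows next to HSP18.0 were detected on both sides, at 7.19 and 7.51 FPKM before it and 3.53 and 1.61 FPKM after it. If the reads were aligned to a japonica genome, which the sources used here do not say, low values at loci that differ in 93-11 cannot be told apart from low expression. This limit holds for the low class I loci as well.

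Ordered by mean level, the top of the set was separated by more than the spread between the libraries and most of the low loci were not. LOC_Os03g16040 lay above LOC_Os03g15960 and this locus above all others in both libraries. The next places by mean went to LOC_Os01g04360, HSP18.0, LOC_Os01g04370 and LOC_Os03g16020, and each neighbour in that order overlapped with the next. HSP18.0 lay below LOC_Os01g04360 in replicate 1 and above it in replicate 2. LOC_Os01g04380 came below LOC_Os03g16020 without overlap, with 0.219 FPKM as its highest value against 0.265 FPKM as the lowest of LOC_Os03g16020. HSP26.7 came last, and its values overlapped with the 0 of LOC_Os01g04380 in replicate 1.

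Neighbouring class I loci differed widely in level on chromosome 3, whereas on chromosome 1 all were under 1 FPKM and the distance between them depended on the constant added before taking logs. On chromosome 3, LOC_Os03g16020 and LOC_Os03g16040 flank the locus without a row, and 1 further row, listed at 0 in both libraries, is numbered between them. In each library the later locus was the higher: LOC_Os03g16040 exceeded LOC_Os03g16020 by 3.95 on the log2(FPKM + 1) scale in replicate 1 and by 3.90 in replicate 2. On FPKM itself, it was 69.9 times as high in replicate 1 and 51.02 times as high in replicate 2. Between the libraries, after scaling to the same total, these loci differed by 0.23 (LOC_Os03g16040) and 0.17 (LOC_Os03g16020) on the log2(FPKM + 1) scale. LOC_Os03g15960, which is separated from LOC_Os03g16020 by 4 rows, lay above it by 3.16 and 2.96 on the log2(FPKM + 1) scale in replicates 1 and 2.

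On chromosome 1, LOC_Os01g04370 was below LOC_Os01g04360 by 0.12 on the log2(FPKM + 1) scale in replicate 1 and by 0.02 in replicate 2. LOC_Os01g04380 was below LOC_Os01g04370 by 0.43 in replicate 1 and 0.37 in replicate 2. The added 1 FPKM makes differences between such low levels small, and on FPKM itself LOC_Os01g04380 stood at 0.379 times LOC_Os01g04370 in replicate 2. Of the 3 tandem pairs, only the chromosome 3 pair was more than 2-fold apart on log2(FPKM + 1) in both libraries. With an added 0.1 FPKM in place of 1, LOC_Os01g04380 and LOC_Os01g04370 were also more than 2-fold apart, by 2.16 in replicate 1 and 1.09 in replicate 2 on the log2 scale, as were 67.9% of all pairs of rows with consecutive locus numbers in both libraries. LOC_Os01g04360 and LOC_Os01g04370 were 0.34 and 0.04 apart on that scale. With the added 1 FPKM, among all 37740 pairs of rows with consecutive locus numbers on a chromosome, 57.4% were more than 2-fold apart in both libraries. A gap as wide as that of the chromosome 3 pair in both libraries was found in 14.0% of the pairs, and 20.4% of the pairs had both rows under 1 FPKM in both libraries, as the chromosome 1 pairs had. The chromosome 3 pair has 1 row numbered between its loci and so is not itself a consecutive pair. Class I genes have similar coding sequences, and how the authors' counting treated reads that match several of them is not given, so the split of reads between neighbours is uncertain.

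RefSeq's genes of the assembly ASM3414082v1, from Japonica rice, give the order of named small heat shock protein genes but hold no ID of the set. RefSeq lists 5 genes in a row on chromosome 1 with small heat shock protein synonyms, namely HSP16.6, HSP17.9B, HSP16.9C, HSP16.9A and HSP16.9B, and 3 in a row on chromosome 3, namely HSP17.4, HSP18.1 and HSP17.7. A synonym of HSP18.1 is OSHSP18.0, but HSP18.1 is not the class II gene HSP18.0. HSP17.9A stands apart from these 3 on chromosome 3. HSP18.0 is named there on chromosome 1 and HSP26.7 on chromosome 3, the chromosomes in the IDs of LOC_Os01g08860 and LOC_Os03g14180. Which class I name belongs to which locus ID is not stated there, so class I loci are given by ID.

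**Figure D2:**
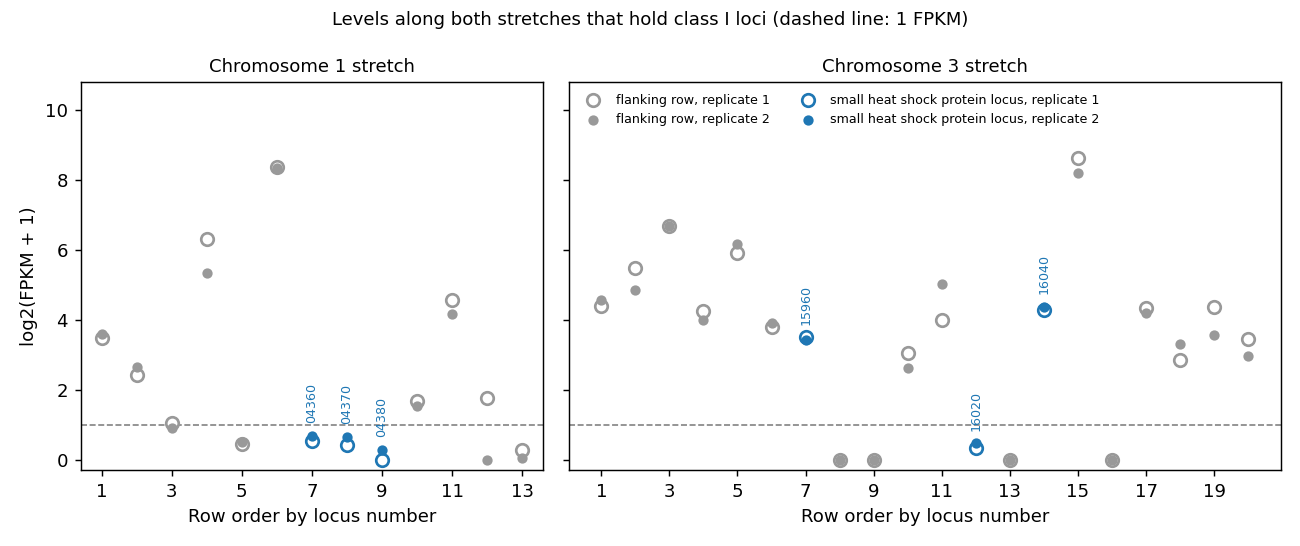
Level as log2(FPKM + 1) of the rows around the class I loci of chromosome 1 (left) and chromosome 3 (right), in order of locus number, with small heat shock protein loci in blue (last 5 digits of the ID) and rows outside the set, whose identity is not given, in grey, open for replicate 1 and filled for replicate 2. The 3 chromosome 1 loci lie under 1 FPKM (dashed line) beside a flanking row with a mean of 329.4 FPKM, and 2 of the 3 chromosome 3 loci lie above it.

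The rows around the tandem loci covered a much wider range than the listed loci. A stretch of rows with nearby locus numbers was taken on each chromosome. In the chromosome 1 stretch, with 13 rows, 6 of the 10 flanking rows were detected in both libraries, and the median flanking row had 3.36 FPKM (first library) and 3.61 FPKM (second library). The row directly before LOC_Os01g04360, LOC_Os01g04350, was the highest of the stretch, for which replicate 1 gave 331.4 FPKM and replicate 2 gave 327.3 FPKM. That was 714.4 and 547.6 times the level of LOC_Os01g04360. The files and the RefSeq table pair no name with LOC_Os01g04350. RefSeq lists 5 small heat shock protein genes in a row on chromosome 1 and the set holds 3 class I loci there, so a row counted here as flanking, LOC_Os01g04350 included, could itself be a small heat shock protein gene, which was not tested. The low levels given for chromosome 1 are those of the 3 listed loci and not of the whole run of genes. The lowest flanking row of the stretch, LOC_Os01g04440, had 0.225 and 0.0409 FPKM. Of the 10 flanking rows, 8 had a higher mean than every class I locus of that stretch.

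In the chromosome 3 stretch, with 20 rows, 13 of the 17 flanking rows were detected and the other 4 were listed at 0 in both libraries. Their medians were 15.03 and 14.1 FPKM, so LOC_Os03g16040 lay above the median of its surroundings and LOC_Os03g15960 below it. The highest was LOC_Os03g16050, next after LOC_Os03g16040, for which replicate 1 gave 392.9 FPKM and replicate 2 gave 294.1 FPKM, and 6 flanking rows had a higher mean than LOC_Os03g16040.

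None of the 8 loci differed more than 2-fold between the libraries on log2(FPKM + 1) after both were scaled to the same total, against 5.62% of all rows. Among rows with a mean of 10 FPKM or more, where LOC_Os03g16040 and LOC_Os03g15960 belong, 6.52% differed that much, and among rows with a mean above 0 and under 1 FPKM 3.17% did. Because of the added 1 FPKM, 4 of the 8 loci could not have passed this limit at their mean levels. That holds even if the whole level lay in replicate 2 and the other library were at 0. The other 4 could have passed it, as could 62.6% of all rows. The count of 0 rests on these 4 loci and does not set them apart from all rows. The 5.62% is taken over all rows, including those that could not pass. The difference of replicate 2 minus replicate 1 was 0.23 for LOC_Os03g16040, and 49.5% of the rows with a mean of 10 FPKM or more had a smaller one. For LOC_Os03g15960 it was 0.07, smaller than for all but 17.3% of those rows, and its sign depended on the scaling: it was -0.07 on the values as deposited and -0.01 with scaling by the median of ratios.

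**Figure D3:**
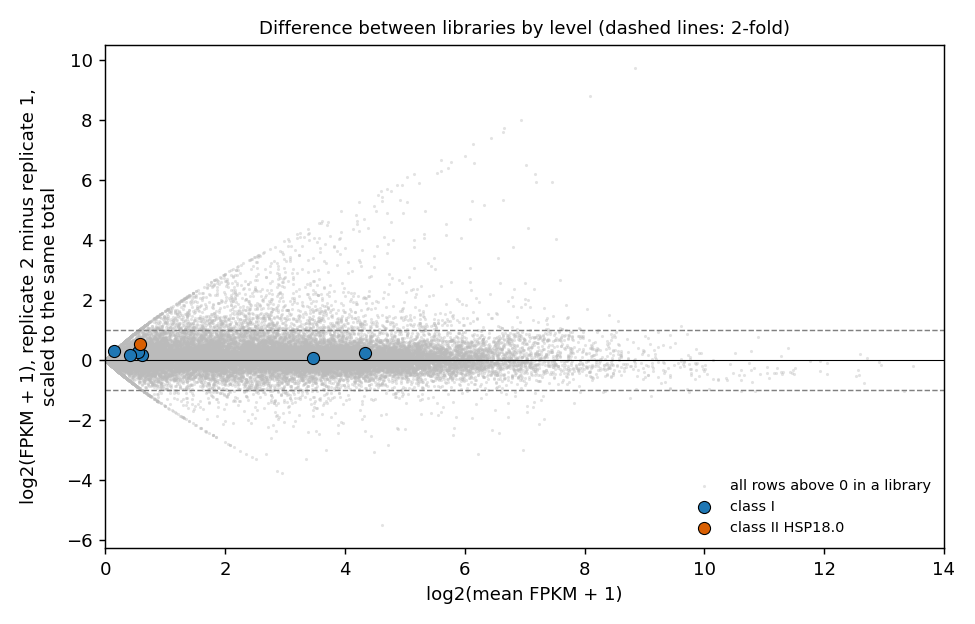
Difference between the libraries, as log2(FPKM + 1) of replicate 2 minus replicate 1 after scaling to the same total, against log2(mean FPKM + 1), with all rows above 0 in a library in grey, small heat shock protein loci in colour and dashed lines at 2-fold. The 7 small heat shock protein loci above 0 lie between 0.07 and 0.53, inside the dashed lines.

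HSP18.0 had the largest difference of the set, 0.53 on this scale, and 84.1% of the rows with a mean above 0 and under 1 FPKM had a smaller one. On FPKM as deposited, HSP18.0 was 3.01 times as high in replicate 2 as in replicate 1, below the level set for detection. With a pseudocount of 0.1 or of 0.01 in place of 1, HSP18.0 and LOC_Os01g04380 were past 2-fold, both higher in replicate 2, against 13.4% and 17% of all rows in either direction. LOC_Os01g04380 differed by 0.30, LOC_Os01g04370 by 0.28, LOC_Os01g04360 by 0.18 and LOC_Os03g16020 by 0.17. All 5 loci with a mean above 0 and under 1 FPKM were higher in replicate 2 under each of 3 scalings (as deposited, to the same total and by the median of ratios), while 54.1%, 58.0% and 55.7% of the rows in that range were. Of these loci, LOC_Os01g04380 was listed at 0 in replicate 1 and could only be higher in replicate 2. The split of reads between class I loci is uncertain, so they may not count separately. With no locus past 2-fold at the added 1 FPKM, no tandem pair could have both loci past it. Of all consecutive pairs, 0.363% had both rows past it in the same direction. The count of tandem pairs therefore adds nothing to the count of loci. Since 1 library was set against 1 library, no replicate check exists for any of these differences.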

How the data were processed

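Each library has its own table of FPKM by locus, as deposited by the authors. The submitters' processing notes name TopHat2 and Cufflinks and no version of either. No build, annotation or filter is given in the sources used here. Fragment counts do not come with FPKM, so no counting interval could be given. Steps between the low values of 1169 rows gave replicate 1 a depth 1.13 times that of the other library, where only similar depths were searched; only 12.0% of these rows lay near a step, against 4.11% at the median trial, so this ratio is weakly supported and was not used.

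The rule for the loci uses IDs and no measured values. Even so, the loci, lists and comparisons were chosen with earlier results of these data known. All rows were kept, including both rows of the 1 ID listed again. Differences were taken on log2(FPKM + 1), which understates those of low loci, with no test, since there is 1 group of 2 libraries. The calculation was tried on simulated data with changes placed only in rows with a mean of 10 FPKM or more. That trial does not cover the loci under 1 FPKM. Of flanking rows, the highest and the lowest of each stretch by mean were to be named; in the chromosome 3 stretch 4 rows tied at 0 and none is named. The RefSeq table matched 1 of 37895 IDs and none of the set, so other chaperones and heat shock factors are not reported, and no sequences were used. Alternatives covered thresholds, pseudocounts, scalings, fold limits and each library alone. The software was numpy 2.4.6, pandas 2.3.3 and matplotlib 3.10.9 under Python 3.11.15.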

Additional observations from a re-analysis of the deposited data

How the results depend on the processing

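No paired analysis was possible because the 2 libraries belong to the same group. The number of detected loci was 2 at 1 FPKM, at 5 FPKM and in each library alone. It was 6 at 0.1 FPKM and 4 at 0.3 FPKM, a threshold chosen after seeing the data. Of all rows, 53.1% passed at 1 FPKM, 35.8% at 5 FPKM and 65.8% at 0.1 FPKM in both libraries. The low count of detected loci beside all rows therefore does not hold at 0.1 FPKM. No locus was past 2-fold between the libraries with other scalings, and none was past a fold limit of 1.5. A fold limit of 4 and the level minimums could only give 0 as well, so they add nothing. With a pseudocount of 0.1 or of 0.01, LOC_Os01g04380 and HSP18.0 were past 2-fold, both higher in replicate 2. Of all rows, 13.4% and 17% were past 2-fold in either direction. The difference between LOC_Os03g16040 and LOC_Os03g16020 was 3.93 on average, 3.90 to 3.95 in each library alone, 5.51 with a pseudocount of 0.1 and, in settings chosen after seeing the data, 5.86 with 0.01 and 5.90 with no added constant. The difference of LOC_Os01g04380 minus LOC_Os01g04370 was -0.40 on average, -1.62 with a pseudocount of 0.1 and -3.26 with 0.01, and that of LOC_Os01g04370 minus LOC_Os01g04360 was -0.07, -0.19 and -0.23. On the mean over loci, chromosome 3 class I lay above chromosome 1 class I by 2.22 to 2.38 in each library alone. The same mean lay above that of the class II and chloroplast genes by 2.36 to 2.55. With a pseudocount of 0.1 the differences were 3.46 and 4.23. Both rest on LOC_Os03g16040 and LOC_Os03g15960, since LOC_Os03g16020 was under 1 FPKM in both libraries. These differences grow because the added constant weighs most on low levels. The loci held 0.00443% of the summed FPKM, 0.00407% to 0.00479% in each library alone, and 0.00627% of a total without the 100 most abundant rows, also chosen after seeing the data. For the 6 loci under 1 FPKM, the precision is unknown without fragment counts.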
